A study of Mus musculus with 8 samples.

Results

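The expression of 10 genes of bone morphogenetic protein (BMP) and transforming growth factor beta (TGF-beta) signalling was examined in mouse Paneth cells, the crypt cells of the small intestine that release antimicrobial peptides. They were taken by symbol, and all 10 were found among the 55414 gene IDs of the count table. They are Bambi, the receptor genes Bmpr1a, Bmpr2, Tgfbr1 and Tgfbr2, the inhibitory Smad genes Smad6 and Smad7, and Id1, Id2 and Id3. Bambi was selected on its measured fold change between the groups of these libraries, where it had a large fall, so its values are given as a description, without a test. The other 9 genes belong to the same pathway, and the list was drawn up with earlier results of these data known. The mice were wild-type in both groups. Controls were injected with phosphate-buffered saline (PBS) and treated mice with the inflammatory cytokine tumor necrosis factor (TNF). The small intestine was taken 3 h later and Paneth cells were purified on a cell sorter. There were 4 PBS and 4 TNF libraries. The study describes its Paneth cell samples as coming from individual mice. The dose and route of injection, the segment of intestine, and the age and sex of the mice are not given in the labels.

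BMP and TGF-beta ligands are secreted proteins that bring type I and type II receptor kinases together at the cell surface. The activated type I receptor phosphorylates receptor Smads, which join Smad4, enter the nucleus and change transcription. BMP receptors signal mainly through Smad1, Smad5 and Smad9 and induce the Id genes, whereas TGF-beta and activin receptors signal mainly through Smad2 and Smad3. In the small intestine BMP activity is known to rise from the crypt to the villus and to favour differentiation over stem cell renewal. Bambi encodes a transmembrane protein that resembles a type I receptor but lacks a kinase domain, and it dampens signalling by both branches.

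Short stretches of promoter are shown because Smad proteins recognise defined DNA letters, and because the genes listed here include both receptors of the pathway and genes that it is known to control. RefSeq windows running from 250 bases before to 50 bases after the transcription start (build GRCm38.p6) were matched for 7 of the 10 genes, as 8 windows. Bambi, Smad7 and Id1 are named only. For each window with a match, 60 bases are printed 5′ to 3′ on the strand of the gene, with the matching letters in capitals. In Smad6 the capitals are the palindrome GTCTAGAC, which is known to be bound by Smad3 and Smad4. It was searched for after the window had been seen. In the other 4 windows they are GGCGCC, a GC-rich element known from BMP-responsive promoters.
Smad6 (chr9:64022040-64022099, minus strand): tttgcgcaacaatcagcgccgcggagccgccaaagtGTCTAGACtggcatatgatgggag
Bmpr1a (chr14:34502712-34502771, minus strand): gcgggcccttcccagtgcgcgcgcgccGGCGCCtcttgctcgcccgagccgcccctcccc
Bmpr2 (chr1:59764147-59764206, plus strand): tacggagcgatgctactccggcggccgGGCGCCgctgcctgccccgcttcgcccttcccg
Tgfbr1 (chr4:47352972-47353031, plus strand): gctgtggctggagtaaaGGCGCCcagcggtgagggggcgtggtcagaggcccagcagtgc
Id2 (chr12:25096283-25096342, minus strand): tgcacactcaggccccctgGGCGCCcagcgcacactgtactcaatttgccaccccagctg
The Smad6 palindrome spans the annotated start, from base -4 to base 4. Of all 32851 windows of 300 bases in the table, 70 hold the palindrome (0.213%), and 3898 hold GGCGCC (11.9%). Both motifs read the same on either strand. The NF-kB consensus, searched by name on both strands because TNF activates NF-kB, had 0 matches in the windows of these 7 genes and is held by 8.46% of all windows. The motifs did not overlap each other, and a match of letters in a window is not evidence of binding.

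The count table gave 23824717 to 32576077 counts per library. The scaling factors for library composition lay between 0.995 and 1.36, except in TNF replicate 4, where the factor was 0.448. This library also had the fewest genes with a count, 16712 against 17529 to 19135 in the other libraries, and stood apart on the component that held 15.8% of the variance. Results that rest on it are therefore given with and without it. The Paneth cell markers were all 10 above the filter on low counts in these libraries. Of the 7 endothelial markers only Esam passed the filter, Cdh5 had at most 3 counts in a library, and the summed level ran from 5.50 to 6.66 normalized CPM in PBS (counts scaled to 1e6 per library, after correction for composition) and from 2.28 to 2.75 in TNF. Of the 7 stroma markers only Vim passed, Col1a2 and Col3a1 were at 0 in every library, and the sum ran from 0.186 to 0.407 in PBS and from 0.945 to 1.63 in TNF. Immune markers summed to between 56.1 and 76.1 in PBS and between 64.9 and 118 in TNF, with Cd3e and Cd79a at 0 in every library. Goblet markers summed to between 3683 and 5942 in PBS and between 6395 and 7631 in TNF, and enteroendocrine markers to between 25.5 and 33.2 in PBS and between 47.2 and 122 in TNF, with no overlap of the groups in either list. The goblet sum was carried by Muc2, which rose from 1960 ± 457 to 4718 ± 1376. Spdef also rose, and Fcgbp and Clca1 fell, although the groups of Clca1 overlapped and PBS replicate 1, at 554, was far above the other controls. Without Muc2 it was 1809 to 3341 in PBS and 1238, 1275, 1356 and 4909 in TNF, so that 3 of 4 TNF libraries lay below every control. Stem cell markers summed to between 1894 and 2783 in PBS and between 1709 and 2242 in TNF. Of them 4 of 6 were called lower by edgeR, beside 19.6% of all genes tested. Enterocyte markers summed to between 250.4 and 276 in PBS and between 266 and 296 in TNF. The Paneth cell markers summed to 1227780 normalized CPM in TNF replicate 4, against 393940 to 458706 in the other TNF libraries. That sum exceeds 1e6 because counts of this library are divided by its scaling factor of 0.448, so much of the excess comes from the scaling. The part of these markers in the results below was not tested.

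Per exon length Bambi had the highest level of the 10 genes in control cells, and its normalized CPM were lower in every TNF library than in any control. It lies on chromosome 18 (GRCm39 3507871-3516404, plus strand, ENSMUSG00000024232). Normalized CPM were 154, 225, 223 and 214 in PBS replicates 1 to 4. They were 13.0, 7.34, 6.88 and 36.9 in TNF replicates 1 to 4. The groups did not overlap, PBS replicate 1 was the lowest control, and TNF replicate 4 was the highest of the treated libraries. The means were 204 ± 33.5 in PBS and 16.0 ± 14.2 in TNF (SD, n = 4 each). The fitted log2 fold change was -3.71 (SE 0.50), which is 13.1-fold lower in TNF. Without TNF replicate 4 it was -4.48. In bulk RNA of sorted cells, fewer cells that carry a transcript and less of it per cell cannot be told apart.

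Among the other 9 genes, 4 passed the test for a difference between TNF and PBS at an adjusted p under 0.05. Tgfbr2, Bmpr2 and Id1 were higher and Smad6 was lower. This is 44.4% of the 9 genes, beside 43.0% of all 13368 genes tested. The share called higher was 33.3% beside 23.3% of all genes, and the share called lower was 11.1% beside 19.6%. The counts among these genes are thus close to what any genes of this table showed, and the size and order of the differences are what the following paragraphs describe. The median log2 fold change was 0.24 over the 9 genes and 0.03 over all genes tested. Of all genes tested, 42.1% had groups that did not overlap.

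**Figure D1:**
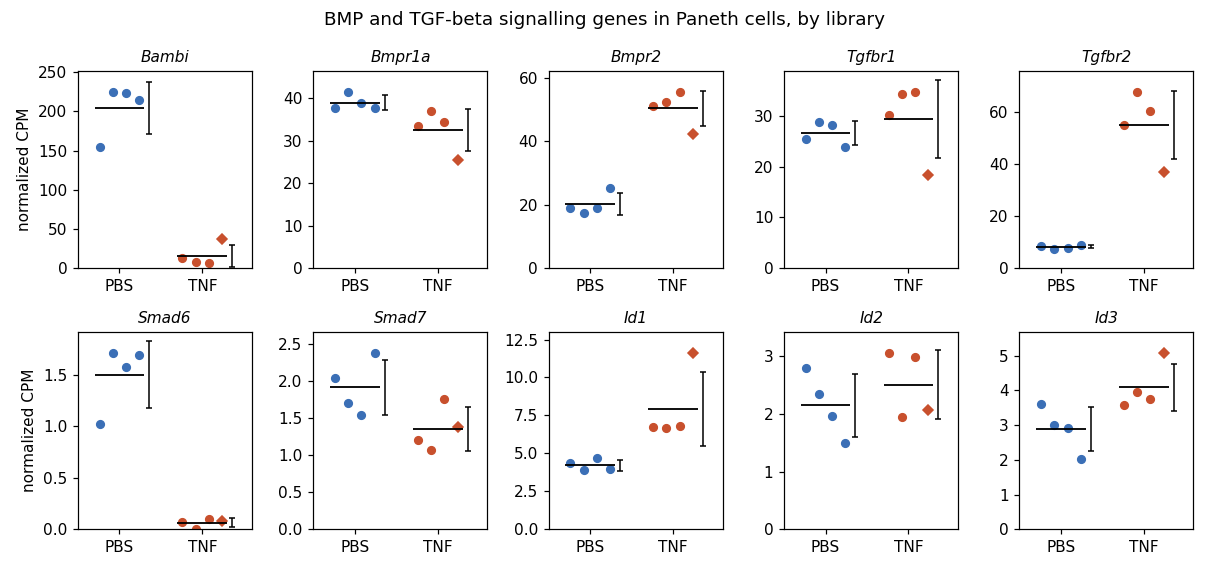
Normalized CPM (vertical axes, from 0, with a scale of their own in each panel) of the 10 genes in the 4 PBS libraries (blue) and the 4 TNF libraries (red). The diamond is TNF replicate 4, horizontal lines are means and bars are 1 SD; Smad6 sits near 0 in TNF, Bambi is at 6.88 to 36.9 in TNF against 154 to 225 in PBS, and the groups of Tgfbr2, Bmpr2 and Id1 lie apart with TNF above PBS.

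Of the 4 receptor genes among the 10, the type II receptors Tgfbr2 and Bmpr2 rose, and the type I receptors Tgfbr1 and Bmpr1a did not pass the test. Tgfbr2, the receptor that binds TGF-beta first and then recruits Tgfbr1, lies on chromosome 9 (GRCm39 115913361-116004800, minus strand). Its normalized CPM were 8.58, 7.55, 7.92 and 8.85 in PBS and 55.0, 67.7, 60.4 and 37.0 in TNF. Every TNF library was above every PBS library, and TNF replicate 4 was the lowest of the treated libraries. Tgfbr2 rose 6.69-fold (log2 fold change 2.74, SE 0.18, adjusted p = 1.29e-06 by edgeR), and it was called under all 16 alternatives.

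Bmpr2, the type II receptor for BMPs, lies on chromosome 1 (GRCm39 59802544-59918173, plus strand). It had 18.9, 17.3, 19.0 and 25.3 normalized CPM in PBS and 51.1, 52.2, 55.5 and 42.4 in TNF. The groups did not overlap on this scale. In CPM without the correction for composition, TNF replicate 4 was at 19.0, inside the PBS range of 18.2 to 34.3. Bmpr2 rose 2.50-fold (log2 fold change 1.32, SE 0.14, edgeR adjusted p = 3.91e-05). When libraries were scaled by their size alone, its log2 fold change was 0.95 and the call was lost (adjusted p = 0.0689). That scaling moved the median of all genes from 0.03 to -0.38 and the share of higher among called genes from 54.3% to 23.8%.

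Bmpr1a, a type I receptor for BMPs, had 37.7 to 41.4 normalized CPM in PBS (38.9 ± 1.77) and 25.5 to 37.0 in TNF (32.6 ± 4.95). The groups did not overlap, but its log2 fold change of -0.25 (SE 0.13) did not pass the test (edgeR adjusted p = 0.127). Tgfbr1, the type I receptor for TGF-beta, had 23.8 to 28.8 in PBS (26.6 ± 2.33) and 30.1, 34.3, 34.7 and 18.4 in TNF (29.4 ± 7.63). Its TNF libraries fell on both sides of the controls because TNF replicate 4 was below them all. Its log2 fold change was 0.15 (SE 0.18, edgeR adjusted p = 0.529). Without TNF replicate 4 it was 0.33 and passed the test (adjusted p = 0.0202), and with library size alone it was -0.15, below 0.

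Ratios between 2 genes in the same library do not depend on how libraries are scaled, so 6 ratios of related genes were compared between the groups. The log2 ratio of Tgfbr1 to Tgfbr2 counts was 1.57, 1.93, 1.83 and 1.43 in PBS and -0.87, -0.98, -0.80 and -1.01 in TNF. Tgfbr1 had more counts than Tgfbr2 in every PBS library and fewer in every TNF library, TNF replicate 4 included. The means differed by -2.60, with p = 0.0286 in a two-sided exact permutation test and 0.0571 after adjustment over the 6 ratios. The log2 ratio of Bmpr1a to Bmpr2 counts went from 0.97 ± 0.28 in PBS to -0.63 ± 0.10 in TNF (SD, n = 4 each), a difference of -1.60 with the same exact p-values (p = 0.0286, adjusted p = 0.0571). A p of 0.0286 is the smallest that the 70 assignments of 4 against 4 libraries allow, and after adjustment none of the 6 ratios passed 0.05.

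**Figure D2:**
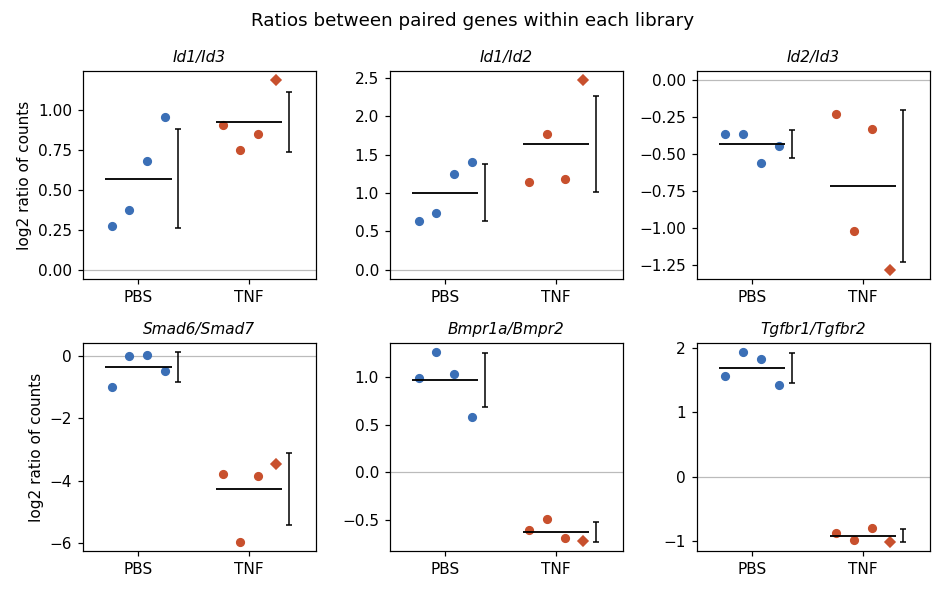
Log2 ratio of the counts of 2 genes in the same library (vertical axes) for 6 gene pairs, in PBS (blue) and TNF (red), with the mean (line), 1 SD (bar), and TNF replicate 4 as a diamond. Both receptor ratios are above 0 in all PBS libraries and below 0 in all TNF libraries, the Smad6 to Smad7 ratio is far lower in TNF, and the ratios among the Id genes overlap.

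Of the inhibitory Smads, Smad6 fell to a few counts per library whereas Smad7 did not pass the test. Smad6 mainly blocks BMP receptors and Smad7 blocks both branches, and each is known as a target of the pathway it limits. Smad6 (chromosome 9, GRCm39 63860341-63929793, minus strand) had 1.02, 1.71, 1.58 and 1.70 normalized CPM in PBS, from 38, 46, 40 and 75 counts. In TNF it had 0.0710, 0, 0.105 and 0.0859, from 2, 0, 3 and 1 counts. The highest TNF library was below the lowest control. The log2 fold change was -4.50 (SE 0.50, edgeR adjusted p = 4.42e-05), and it lay between -4.95 and -4.05 under the 16 alternatives, all of which kept the call. The summed counts, 199 against 6, gave a ratio of PBS to TNF of 24.1 after scaling, with an exact 95% interval of 10.9 to 66.5 that covers counting error only. Smad6 is the gene whose printed promoter window holds the Smad palindrome, which was searched for after that window had been seen. Any part of it in the fall was not tested.

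Smad7 had 2.04, 1.71, 1.54 and 2.38 normalized CPM in PBS and 1.21, 1.07, 1.76 and 1.37 in TNF. The groups overlapped, with TNF replicate 3 inside the range of the controls. The log2 fold change was -0.51 (SE 0.24, edgeR adjusted p = 0.110). The log2 ratio of Smad6 to Smad7 was -0.36 ± 0.48 in PBS and -4.27 ± 1.15 in TNF. The difference of -3.91 had the smallest p possible in this design (two-sided exact permutation p = 0.0286, adjusted p = 0.0571).

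The Id genes encode helix-loop-helix proteins without a DNA-binding region, which hold E proteins in inactive pairs, and they are widely read as targets of BMP signalling. Id1 (chromosome 2, GRCm39 152566218-152579544, plus strand) had 4.34, 3.91, 4.69 and 3.96 normalized CPM in PBS and 6.75, 6.65, 6.78 and 11.6 in TNF. On this scale all TNF libraries were above all controls, and replicate 4 was far above the other TNF libraries. In CPM without the correction for composition, TNF replicate 4 was instead the lowest TNF library, at 5.195, inside the range of the controls. The other TNF libraries stayed above every control there. Id1 rose 1.85-fold (log2 fold change 0.89, SE 0.20, edgeR adjusted p = 0.00414). Without TNF replicate 4 the log2 fold change was 0.69 and still passed the test, and with library size alone it was 0.41 and did not (adjusted p = 0.263).

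Id3 had 2.04 to 3.59 normalized CPM in PBS (2.89 ± 0.642) and 3.59 to 5.07 in TNF (4.09 ± 0.670), with a log2 fold change of 0.49 (SE 0.21) that did not pass the test (edgeR adjusted p = 0.0804). Id2 had 1.49 to 2.79 in PBS (2.15 ± 0.550) and 1.94 to 3.05 in TNF (2.51 ± 0.591), and its groups overlapped (log2 fold change 0.24, SE 0.25, edgeR adjusted p = 0.469). With library size alone the log2 fold change of Id2 was -0.10. For the 3 ratios among the Id genes the groups overlapped and the test was not passed. The log2 ratio of Id1 to Id2 differed by 0.64 (two-sided exact permutation p = 0.171), that of Id1 to Id3 by 0.35 (p = 0.143) and that of Id2 to Id3 by -0.28 (p = 0.429). A rise of Id1 beyond that of Id2 and Id3 was thus not detected.

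**Figure D3:**
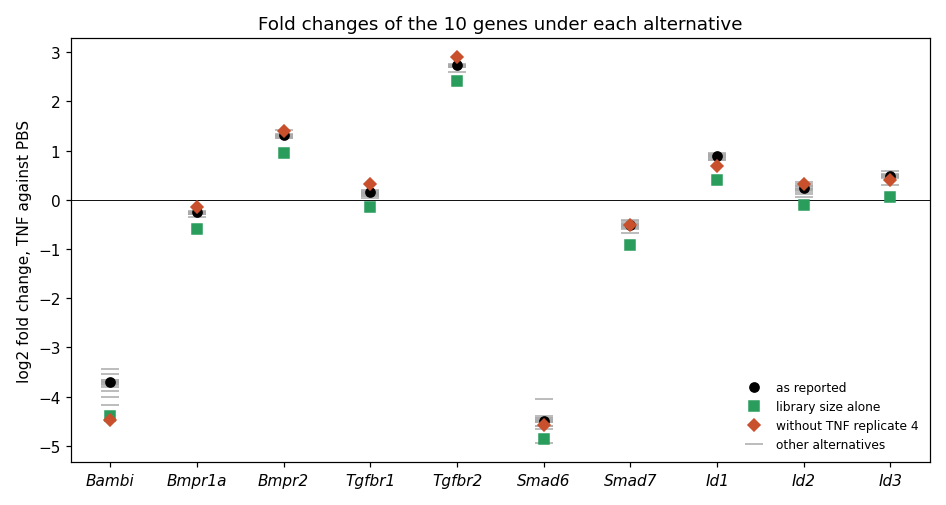
Log2 fold change, TNF against PBS (vertical axis), of each of the 10 genes as reported (black circle) and under each of 16 alternatives, with library size alone as green squares, TNF replicate 4 left out as red diamonds and the others as grey dashes. Values of Tgfbr2, Bmpr2, Id1, Smad6 and Bambi keep their sign under every alternative, and Tgfbr1 and Id2 go below 0 with library size alone.

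Levels of different genes were compared as normalized CPM per kilobase of exon. In PBS, Bambi stood first at 39.8 ± 6.54, above 97.9% of the genes tested. Bmpr1a followed at 5.02 ± 0.229, then Tgfbr1 at 4.02 ± 0.352, Id1 at 2.38 ± 0.206 and Id3 at 1.61 ± 0.359. Bmpr2 stood at 1.11 ± 0.195, Tgfbr2 at 0.936 ± 0.0677, Id2 at 0.617 ± 0.158, Smad6 at 0.423 ± 0.0922 and Smad7 at 0.404 ± 0.0781 (mean ± SD, n = 4). The libraries of neighbours overlapped for Id3 and Bmpr2, Bmpr2 and Tgfbr2, Id2 and Smad6, and Smad6 and Smad7, so the order within these is not resolved by the spread between libraries. Bmpr2 was above Tgfbr2 within each of the 4 PBS libraries.

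In TNF, Tgfbr2 had the highest mean level per kilobase, 6.26 ± 1.49, and Smad6 the lowest, 0.0185 ± 0.0129. With canonical transcript lengths the highest mean in TNF was that of Id1, at 6.88, with Tgfbr2 at 6.49. On exon length, the genes between Tgfbr2 and Smad6 were, in falling order, Id1 at 4.47, Tgfbr1 at 4.44, Bmpr1a at 4.20, Bambi at 3.12, Bmpr2 at 2.78, Id3 at 2.28, Id2 at 0.720 and Smad7 at 0.285. From Tgfbr2 down to Id3 the libraries of every pair of neighbours overlapped, so the order of neighbours among these 7 genes is not resolved. It also rests on TNF replicate 4. Without this library, an alternative chosen after seeing the data, Bambi was at 1.77, below Bmpr2 at 2.93 and Id3 at 2.10. Tgfbr1 was then at 4.99 and Bmpr1a at 4.50, both above Id1 at 3.79. Tgfbr2 remained first at 6.94 and Smad6 last at 0.0166.

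**Figure D4:**
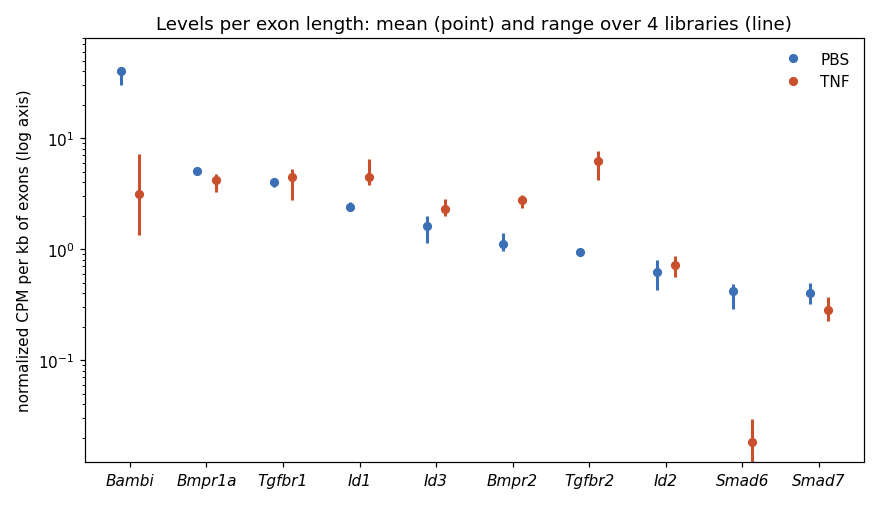
Normalized CPM per kilobase of exon (vertical log axis) of the 10 genes in the order of their PBS means, with the mean (point) and range (line) over the 4 libraries of PBS (blue) and TNF (red). The Smad6 line in TNF runs to the lower edge because 1 library is at 0; Bambi drops from the first place to a wide range that overlaps other genes, and Tgfbr2 rises to the highest mean, which with canonical transcript lengths is that of Id1.

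The rest of the pathway was described with 81 other genes in 7 lists by role, of which 50 passed the filter on low counts. Of these 50, 12 rose and 15 fell, and the median log2 fold change was -0.13. The called share was 54%, made of 24% higher and 30% lower, beside the 43.0%, 23.3% and 19.6% of all genes given above. The counts in each list below stand beside these same shares of all genes. With library size alone 3 pathway genes were called higher, and without TNF replicate 4 there were 17.

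Of 17 ligand genes 11 were tested, 3 rose and 2 fell. Tgfb1, the ligand of the Tgfbr1 and Tgfbr2 complex, had 4.42, 5.25, 4.89 and 6.36 normalized CPM in PBS and 15.5, 18.0, 18.6 and 17.4 in TNF. It rose 3.31-fold (log2 fold change 1.73, SE 0.14, edgeR adjusted p = 5.99e-06). Bmp3, a BMP family member that opposes other BMPs, fell from 11.6 ± 0.937 to 5.95 ± 1.09 (log2 fold change -0.94, adjusted p = 0.000526). Inha, the inhibin alpha subunit, fell at under 1 normalized CPM on average (log2 fold change -1.58, adjusted p = 0.0118, and 0.0552 with replicate number as a block). Gdf11 rose at a still lower level (log2 fold change 1.37, adjusted p = 0.0222). Its call was lost without PBS replicate 1 (0.0502), PBS replicate 2 (0.0523) or PBS replicate 3 (0.0580), with library size alone (0.195) and with no filter beyond 1 count (0.0640). Bmp7 was the tested ligand with the highest level per kilobase in PBS, and its 46.2 ± 3.52 normalized CPM in PBS and 44.6 ± 8.56 in TNF gave a log2 fold change of -0.05 that was not called (edgeR adjusted p = 0.821). Without TNF replicate 4 the value was 0.093.

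Of 13 other receptors and co-receptors 7 were tested, 4 fell and 0 rose in edgeR. None was higher at an unadjusted p under 0.05, and DESeq2 and limma-voom also called 0 of them higher. Acvr1c, the type I receptor ALK7, had 39.6, 34.7, 33.7 and 61.3 normalized CPM in PBS and 3.76, 3.81, 4.56 and 6.27 in TNF. The groups lay far apart, and the log2 fold change was -3.23 (SE 0.24, edgeR adjusted p = 3.12e-06). Rgmb, a membrane-anchored co-receptor for BMPs, had 115, 121, 124 and 142 in PBS and 30.3, 23.4, 22.2 and 35.6 in TNF. It fell by 2.18 on the log2 scale (SE 0.17, adjusted p = 3.84e-06). Acvr1, the type I receptor ALK2, fell from 19.6 to 12.8 (log2 fold change -0.61, adjusted p = 0.00144). Acvr1b, the activin receptor ALK4, fell from 34.6 to 23.7 (log2 fold change -0.55, adjusted p = 0.00625, and 0.0734 with library size alone).

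Of the 5 tested genes for receptor Smads and Smad4, 0 passed the test in edgeR, and DESeq2 and limma-voom called 0 as well. At an unadjusted p under 0.05, 1 was higher (Smad1) and 1 was lower (Smad5). Smad4, the partner shared by both branches, had 39.0 ± 2.90 normalized CPM in PBS and 42.3 ± 2.68 in TNF (log2 fold change 0.12, edgeR adjusted p = 0.390). With library size alone its log2 fold change was -0.25. Smad1 and Smad5, which carry BMP signals, had log2 fold changes of 0.35 and -0.34 at adjusted p-values of 0.0858 and 0.0736.

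All 11 intracellular inhibitors were tested, 7 rose and 2 fell. Pmepa1, which keeps receptor Smads from the TGF-beta receptor, had 8.02, 8.89, 9.03 and 8.04 normalized CPM in PBS and 37.1, 34.2, 54.1 and 22.7 in TNF. It rose 4.38-fold (log2 fold change 2.13, SE 0.22, edgeR adjusted p = 3.07e-05). Nedd4l, a ubiquitin ligase for Smad proteins and receptors, rose from 12.5 to 25.7 (log2 fold change 1.03, adjusted p = 8.60e-05). Tgif1, a corepressor of Smad-driven transcription, rose by 0.72 (adjusted p = 0.000425), and Fkbp1a, which holds type I receptors inactive, rose by 0.50 on the log2 scale (adjusted p = 0.00449). With library size alone Pmepa1 was the only one of the 7 still called higher (edgeR adjusted p = 0.00502). The calls of Nedd4l, Tgif1 and Fkbp1a were lost, at adjusted p-values of 0.161, 0.480 and 0.799. Ski, a corepressor that binds Smads, fell by 0.77 on the log2 scale (adjusted p = 0.00194).

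Extracellular antagonists and latency proteins were mostly below the filter. Only 5 of 18 were tested, 7 were at 0 in every library, and 2 fell. Fstl3, which binds activin, fell from 2.01 to 0.507 normalized CPM (log2 fold change -1.92, edgeR adjusted p = 0.000224). Fstl1 had 53 to 87 counts in the PBS libraries and 6, 8, 11 and 0 in TNF, and it fell by 3.10 on the log2 scale (adjusted p = 0.000251). Twsg1, a modulator of BMP binding, was not called (log2 fold change 0.38, adjusted p = 0.0692), but without TNF replicate 4 its log2 fold change was 0.53 and passed the test (adjusted p = 0.00102).

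Of 13 target genes 8 were tested, 2 rose and 3 fell. Junb, an AP-1 gene induced by TGF-beta and by inflammatory signals alike, had 21.6, 28.9, 23.7 and 33.2 normalized CPM in PBS and 259, 280, 314 and 241 in TNF. It rose 10.2-fold (log2 fold change 3.35, SE 0.17, edgeR adjusted p = 3.26e-07). Atoh8, a helix-loop-helix gene known as a BMP target, had 5.98, 6.25, 7.53 and 6.43 in PBS and 0.639, 0.485, 0.843 and 1.37 in TNF. It fell by 3.07 on the log2 scale (SE 0.26, adjusted p = 8.12e-06). Id4, the other member of the Id family, had 76, 50, 22 and 73 counts in PBS and 13, 8, 6 and 5 in TNF, and it fell (log2 fold change -2.26, SE 0.37, adjusted p = 0.000654). Bhlhe40, a helix-loop-helix repressor, rose from 58.8 to 112 (log2 fold change 0.94, adjusted p = 0.00107), and this call was lost with library size alone (adjusted p = 0.244).

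The E proteins, the partners that Id proteins hold back, were tested for all 3 genes, and 2 fell. Tcf12 had 121, 135, 129 and 160 normalized CPM in PBS and 40.9, 38.2, 46.9 and 27.2 in TNF. It fell by 1.83 on the log2 scale (SE 0.17, edgeR adjusted p = 1.40e-05). Tcf3 fell from 19.3 to 14.9 (log2 fold change -0.37, adjusted p = 0.0352). Leaving out any PBS library, TNF replicate 2 or TNF replicate 3 lost the Tcf3 call, at adjusted p-values from 0.0581 to 0.0918. It was also lost with the replicate number as a block (0.0589), with library size alone (0.148) and with no filter beyond 1 count (0.0667). Tcf4 had 10.1 ± 2.76 in PBS and 10.8 ± 1.41 in TNF.

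**Figure D5:**
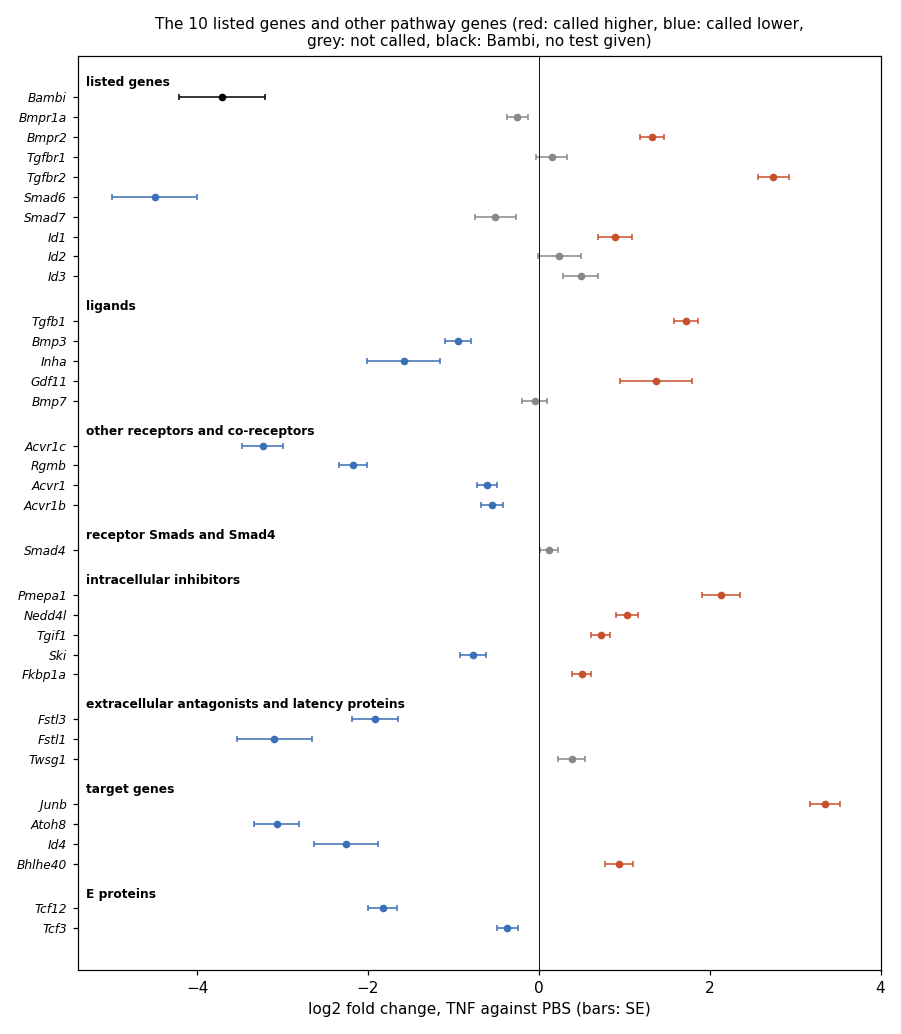
Log2 fold change, TNF against PBS (horizontal axis), with its SE (bars) for the 10 genes and the named genes of each list, coloured by whether the gene was called higher (red), lower (blue) or neither (grey); Bambi is black because no test is given for it. Junb at 3.35 and Tgfbr2 at 2.74 are farthest to the right, and Smad6 at -4.50 and Bambi at -3.71 farthest to the left.

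The genes whose pattern was most like that of Bambi were sought among tested genes with a symbol and a mean of at least 5 normalized CPM. Likeness was the Pearson correlation of log2 CPM over the 8 libraries, which share the contrast of the groups, so the values are a description. The first 5 were Hes6 (r = 0.994), Pdgfa (0.994), Rep15 (0.992), Osr2 (0.992) and Tcta (0.991). Hes6, a helix-loop-helix gene, had 25.1 to 30.0 normalized CPM in PBS and 9.69, 6.47, 6.28 and 13.1 in TNF. Rep15, which binds Rab15, had 40.0 to 46.3 in PBS and 10.2, 7.93, 7.27 and 18.3 in TNF. Among the 10 genes, Tgfbr2 was the most opposed to Bambi, with r = -0.98 over the 8 libraries.

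Annotated transcripts on the opposite strand overlap some of these genes. The counted ones were Gm17110 at Bmpr1a with 0 to 13 counts, Gm36287 at Id2 with 0 to 1 and Gm4668 at Tgfbr2 with 0 to 3. Whether the counting used strand is not given, so antisense reads inside the counts of these genes cannot be told apart.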

How the data were processed

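RNA was measured in sorted Paneth cells of 4 PBS-injected and 4 TNF-injected mice, with libraries made by the TruSeq Stranded mRNA kit. The authors deposited raw counts per Ensembl gene ID, with 1 column per library and no normalization. The submitters' processing notes name FastQC 0.12, STAR 2.7.10a, DESeq2 and the mm39 build. For its pooled analysis the study describes STAR alignment with GENCODE annotation and Salmon quantification, but it does not say that these made the deposited counts. The counter behind the count table, with its annotation, strand setting and treatment of reads that match several genes, is therefore not known here, so counts of genes with near-identical copies or overlapping partners are less certain.

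Symbols, positions (GRCm39) and exon lengths came from GENCODE release 39 for mouse, which matched 54749 of 55414 IDs; 665 were not matched. Genes were tested with the quasi-likelihood test of edgeR 4.0.16 (R 4.3.3) with TMM scaling, the filterByExpr filter and no covariate, on all genes, with Benjamini-Hochberg adjustment and a threshold of 0.05. Normalized CPM are counts per 1e6 of the TMM-scaled library size, without a prior count. Standard errors were derived from the F statistic. Correlations were computed on log2 CPM, for which the prior count was 2. Within-library ratios used log2 of counts plus 0.5 and a two-sided exact permutation test over 70 assignments (scipy 1.17.1). Exact intervals cover counting error only, since no molecular identifiers are described. The edgeR and permutation procedures were tested on simulated data. Promoter windows came from RefSeq (GRCm38.p6) and were matched by symbol.

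The members and lists were chosen with earlier results of these data known. The text names the 10 genes, in each of the 7 lists up to 4 called genes by smallest p and the tested gene with the highest CPM per kilobase in PBS, and the 5 genes most correlated with Bambi. Smad1, Smad5, Tcf4, Muc2, Spdef, Fcgbp and Clca1 were named after their values were seen. Lists of Paneth, goblet, enterocyte, stem, enteroendocrine, immune, stroma and endothelial markers were read in the same fit. Among tested genes, 2 of 10 Paneth markers rose, 2 of 7 goblet markers rose and 2 fell, 1 of 8 enterocyte markers fell, 4 of 6 stem cell markers fell, 3 of 4 enteroendocrine markers rose, 1 of 4 immune markers (Cd52) rose, Vim rose and Esam fell. Of all genes tested, 23.3% were called higher and 19.6% lower. Alternatives were RLE scaling, library size alone, TMM without Defa genes, 2 other filters, DESeq2 1.42.0, limma-voom (limma 3.58.1), a replicate block, each library left out in turn, canonical transcript length for the levels, TNF levels without TNF replicate 4 (added after seeing the data) and a pseudocount of 0 for the ratios.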

Additional observations from a re-analysis of the deposited data

Results flagged for a closer look

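In 4 of 68 groups of 4 libraries a single library lay far from the others, where chance gives about 3.4 (about 1 group in 20). Bambi in PBS replicate 1 was at 154 normalized CPM against 214 to 225 in the other PBS libraries, a gap of 0.852 of the group's range. Id1 in TNF replicate 4 was at 11.6 against 6.65 to 6.78, a gap of 0.974 of the range. This high value rests on the correction for composition, since without it TNF replicate 4 had the lowest Id1 CPM of the TNF libraries. Acvr1 in TNF replicate 2 was at 14.4 against 12.3 to 12.4, a gap of 0.952 of the range. Tcf3 in PBS replicate 4 was at 19.5 against 19.2 to 19.3, a gap of 0.873 of a narrow range.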

How the results depend on the processing

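Of 748 values recomputed under alternatives, 709 were classed as the same, by a rule for each kind of value. Log2 fold changes and ratios had to keep their direction and their side of the threshold, and levels had to stay within the replicate spread. Counts of called genes had only to stay within 1.5-fold, and the median of all genes within 0.1. For the log2 fold changes of the 10 genes, 155 of 160 were the same. Scaling by library size alone called 3182 genes, 757 of them higher, against 5746 and 3121, and it left 1 of the 9 other genes (Tgfbr2) and 3 of the pathway genes called higher. Under it Tgfbr1 was at -0.15, Id2 at -0.10 and Smad4 at -0.25 on the log2 scale, of the opposite sign. Without TNF replicate 4, Bmp7 was at 0.093, also of the opposite sign. With each library left out in turn, calls over all genes ranged from 4757 (without PBS replicate 1) to 6923 (without TNF replicate 4). With canonical transcript lengths, PBS levels per kilobase were 6.41 for Bmpr1a, 4.55 for Tgfbr1, 3.66 for Id1, 2.26 for Id3, 1.56 for Bmpr2 and 0.873 for Id2, in the same order. With the replicate number as a block 5087 genes were called, no call among the 9 genes changed, and the pathway calls went from 12 higher and 15 lower to 11 and 12, with Inha and Tcf3 among those lost (adjusted p = 0.0552 and 0.0589). Same-numbered libraries did not deviate together (correlations of 0.02, 0.07, -0.14 and -0.13, and 2 of 4 TNF libraries correlated best with their own number). With 4 libraries per group such correlations cannot exclude pairing by number, which the labels do not give. A pseudocount of 0 gave no value for Smad6 to Smad7, since a library had 0 counts. Apart from the cases described in the report, the causes were not tested. Depth limits Smad6, Smad7 and the Id genes, which had 0 to 193 counts per library.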
